A study of Rattus norvegicus with 13 samples.

Results

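The genes described here encode the proteins that carry long-chain fatty acids into the heart cell, bring them into mitochondria and oxidize them there, with their best known regulators. There are 32 of them, listed by name by their place in the pathway, of 14217 genes that were read by at least 1 probe set naming no other gene. Each gene was read by the brightest of its single-symbol probe sets, by the mean log2 signal over all arrays. RNA of left ventricle (LV) of pregnant female Sprague Dawley rats was hybridized to 13 Affymetrix Rat Genome arrays, 5 of control rats, 4 of rats that drank L-methionine at 9 g/L (Met-fed) and 4 of rats that drank L-NAME, which blocks NO synthases, at 1 g/L. By the labels both were given in the drinking water over days 1 to 20 of pregnancy, and the rats were killed on day 20 or 21. Methionine was given to raise homocysteine (HHcy) and L-NAME to restrict NO. All rats had standard chow. The labels do not give age or parity. The paper describes multiparous rats given methionine from the first pregnancy until they were killed. It uses fewer control arrays than were deposited and leaves the L-NAME arrays out. All 5 control arrays were used here. Nothing in the labels says whether RNA of several rats was pooled, so that the p-values measure the spread between these arrays, which may be in part technical.

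The heart draws most of its energy from fatty acids. They cross the plasma membrane with the help of Cd36 and Slc27a1, are bound in the cytosol by Fabp3 and are linked to coenzyme A by Acsl1. The carnitine shuttle then moves the acyl group into the mitochondrion. Cpt1 on the outer membrane forms acylcarnitine, the carrier Slc25a20 takes it across the inner membrane, and Cpt2 restores acyl-CoA. Each turn of beta-oxidation has a dehydrogenation by an acyl-CoA dehydrogenase, a hydration, another dehydrogenation and a thiolytic cleavage that releases acetyl-CoA, and the electrons of the first step pass through the flavoproteins Etfa, Etfb and Etfdh to ubiquinone. Many of these genes are targets of the nuclear receptor Ppara and its coactivator Ppargc1a. Malonyl-CoA inhibits Cpt1, and Mlycd removes it.

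The signal is the MAS5 value, a linear intensity for each probe set, and changes are differences of mean log2 signal with their SE from limma, adjusted over 31042 probe sets. The signal of one probe set cannot be set against that of another, so levels are compared between arrays only. The L-NAME arrays stood apart from the others over the whole array. Their median signal was 34.2 to 36.9, against 25.7 to 27.2 on control and 25.8 to 29.2 on Met-fed arrays. The 3′ to 5′ log2 ratio of beta-actin, which reflects the quality and labelling of RNA, was 2.32 to 2.70 on L-NAME arrays, against 3.31 to 3.67 on control and 3.32 to 3.71 on Met-fed arrays. That of GAPDH was 0.437 to 0.657, against 1.04 to 1.31 and 0.976 to 1.26. The change between L-NAME and control depended on signal. The median log2 change was 0.42 for 15911 probe sets with a mean log2 signal under 5, 0.24 for 9255 between 5 and 8, -0.04 for 4574 between 8 and 10, and -0.39 for 1302 at 10 or more. Of the 32 genes, 24 lay in this last range, 6 between 8 and 10, and 1 each in the lower ranges, Ucp3 and Ppara. The L-NAME changes of the 32 genes are therefore read beside the probe sets of the same signal ranges and under other scalings of the arrays. The part of the array-wide shift in any single change was not tested, and L-NAME and whatever else set these 4 arrays apart cannot be told apart.

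In Met-fed hearts the expression of fatty acid genes lay close to control. None of the 32 genes passed an adjusted p of 0.05 in limma (0 of 31042 probe sets did, 0%). At an unadjusted p under 0.05, 0 were higher, where 5.72% of all probe sets were, and 2 were lower, where 4.97% were. These were Crat, carnitine acetyltransferase, which exchanges acetyl groups between coenzyme A and carnitine, with a log2 change of -0.29 ± 0.10 (n = 4 Met-fed and 5 control), and Ppargc1a, with -0.22 ± 0.10. By sign 10 genes were higher and 22 lower, with a median log2 change of -0.04, against 0.004 over all probe sets and -0.05 over those with a mean log2 signal of 10 or more. In no gene did the Met-fed arrays lie wholly outside the control arrays, as they did in 2.89% of all probe sets. The 95% interval lay within a 1.5-fold change either way in 29 of the 32 genes, and the exceptions were Ucp3, Pdk4 and Ppara, whose signals varied most between arrays or were dim.

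Crat had signals of 1659, 2057, 2012, 2012 and 2074 in control and of 1689.7, 1637, 1481 and 1586 in Met-fed hearts. The groups overlapped through control replicate 1, the lowest of the controls. The adjusted p was 0.35 in limma, with an unadjusted p of 0.0115 and p = 0.0238 in the exact permutation test (2-sided). Ppargc1a, which drives genes of mitochondria and of fatty acid oxidation, had signals of 559, 588, 641, 729 and 631 in control and of 517, 587, 580.2 and 479 in Met-fed hearts, again with overlap (adjusted p = 0.45 in limma, p = 0.0556 in the exact test). Neither gene showed a difference that passed over all probe sets.

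Cpt1a, the form of carnitine palmitoyltransferase 1 known from liver, and Decr1, the reductase that unsaturated fatty acids need, had the next smallest p (unadjusted p = 0.0638 and 0.065 in limma). Cpt1a had signals of 1151, 1482, 1189.8, 1417 and 1296 in control and of 1129.7, 969, 1317 and 1099 in Met-fed hearts, with a log2 change of -0.21 ± 0.11. Decr1 had 1215, 1467, 1043, 1476 and 1048 in control and 1857, 1413, 1382 and 1273 in Met-fed hearts, a change of 0.25 ± 0.12. For Decr1 Met-fed replicate 1 was the highest of both groups, while the other Met-fed arrays lay within the control range. Cd36, the membrane translocase, had 1887, 1397, 1404 and 1482 in Met-fed hearts and a change of 0.07 ± 0.14 (95% interval -0.22 to 0.37). Cpt1b, the muscle form of carnitine palmitoyltransferase 1, had 1571, 1643, 1591 and 1516 and a change of -0.05 ± 0.08 (-0.22 to 0.12). The signs of both turned when single arrays were left out, so that no direction can be given. Acadm, the medium-chain dehydrogenase, had 2516, 3038, 3169 and 2664 and a change of -0.07 ± 0.07 (-0.22 to 0.08). Hadha, a subunit of the mitochondrial trifunctional protein, had 1272, 1219.6, 1222 and 1052 and a change of 0.13 ± 0.09 (-0.05 to 0.31). These intervals lie within a 1.5-fold change either way.

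Pdk4, the kinase that shuts off pyruvate dehydrogenase when fatty acids are burnt, varied widely between arrays of the same group. It had signals of 1207, 2316, 934, 2344 and 1516 in control and of 1611, 506, 1304 and 1157 in Met-fed hearts, with a log2 change of -0.57 ± 0.36 with a 95% interval of -1.33 to 0.19. Met-fed replicate 2 was the lowest of both groups, and the other arrays overlapped. Ucp3, a carrier of the mitochondrial inner membrane that responds to fatty acids, spread in the same manner, from 48.5 to 155 in control and from 61.3 to 150.1 in Met-fed hearts (log2 change 0.07 ± 0.38). Ppara was dim on this array, with signals of 7.82 to 21.0 and 11.6 to 19.5 and a change of -0.02 ± 0.33. Over the 32 genes the pooled SD of log2 signal within groups was 0.09 to 0.68 with a median of 0.15.

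**Figure D1:**
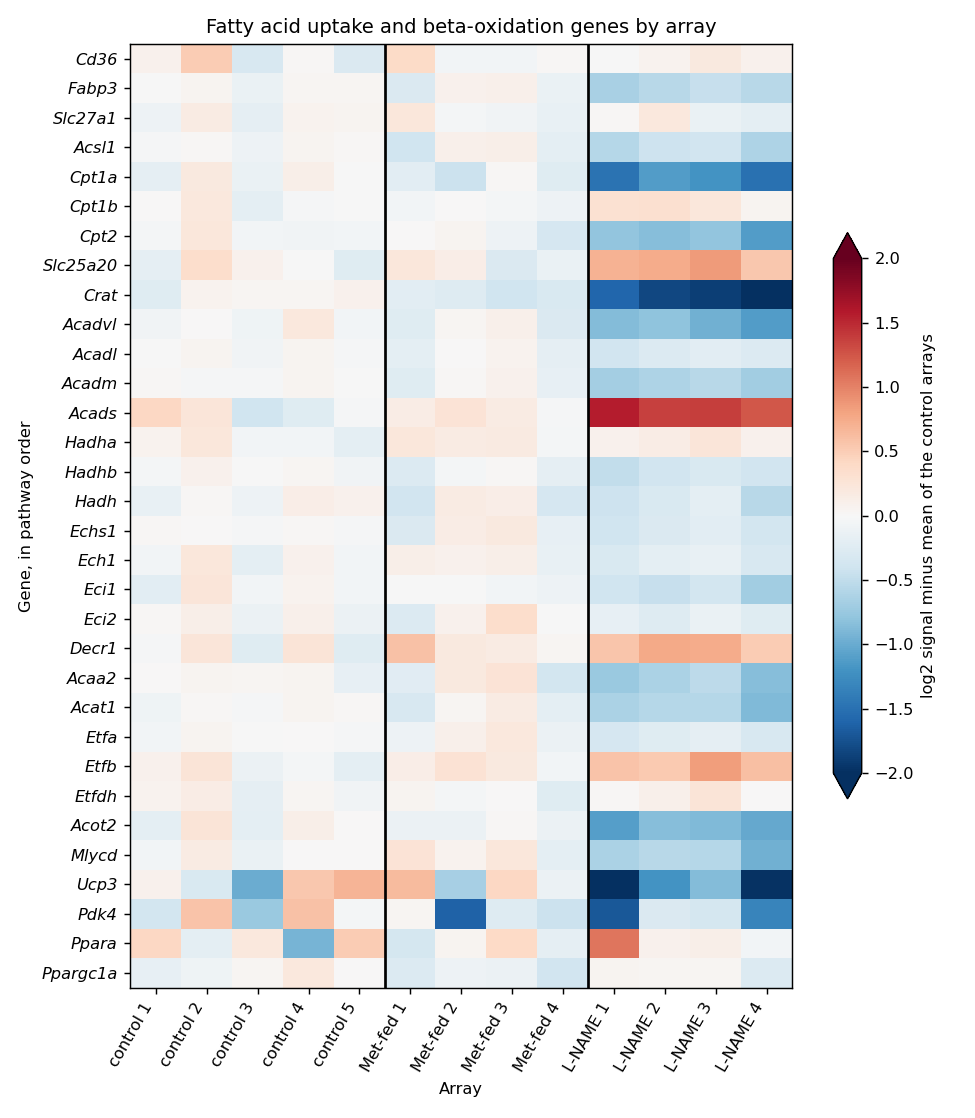
Heat map of log2 signal minus the mean of the 5 control arrays (colour, from -2 to 2) for the 32 genes in pathway order (vertical axis) on each of the 13 arrays (horizontal axis, grouped as control, Met-fed and L-NAME). The Met-fed columns stay pale except for Pdk4 and Ucp3, while on all 4 L-NAME arrays Crat and Cpt1a are deep blue and Acads is red, as deposited and before any other scaling.

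In L-NAME hearts single steps of the pathway differed widely from control. As deposited, 20 of the 32 genes were lower at an adjusted p under 0.05 in limma, where 17% of all probe sets were, and 5 were higher, where 28.7% were. The falls were largest in Crat (3.66-fold lower), Ucp3 (3.16-fold), Cpt1a (2.50-fold), Acot2 (1.95-fold) and Acadvl (1.92-fold), and the largest rise was in Acads, the short-chain acyl-CoA dehydrogenase (2.62-fold higher, n = 4 L-NAME and 5 control). All 4 L-NAME arrays lay under all controls in 18 genes, where 14.5% of all probe sets did, and above them in 4, where 25.8% did. The median log2 change over the 32 genes was -0.34, against 0.22 over all probe sets. In a tissue sample less RNA per cell and fewer cells of a type cannot be told apart.

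The list as a whole moved as other bright probe sets did. Of the 24 genes with a mean log2 signal of 10 or more, 17 were lower (70.8%) and 3 higher (12.5%), and of all 1302 probe sets of that range 68.7% were lower and 6.84% higher. The median change of the 24 genes was -0.38, against -0.39 for the range. For the 6 genes between 8 and 10 it was -0.03, against -0.04. Single genes lay on either side. Of the 24 bright genes 5 lay under the 10th percentile of their range (Crat, Cpt2, Acadvl, Acot2 and Pdk4) and 4 above the 90th (Decr1, Etfb, Cpt1b and Hadha), while 15 lay between them.

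How many genes rose or fell also turned on the scaling. Quantile normalization gave 11 higher and 10 lower, cyclic loess 9 and 10, centring on bright probe sets 10 and 12, and centring on the array median 1 and 26. The median change of the 32 genes was 0.01 with quantile normalization (-0.01 over all probe sets), 0.01 with cyclic loess (-0.01), -0.03 with centring on bright probe sets (0.54) and -0.77 with centring on the array median (-0.21). Of the 20 falls, 10 passed under each of these scalings and as deposited, namely Cpt1a, Cpt2, Crat, Acadvl, Acadm, Acaa2, Acat1, Acot2, Mlycd and Ucp3. Over all probe sets 9.04% were lower and 15.4% higher under every scaling. Of these 10 genes 7 lay among the 24 bright ones (29.2%), where 32.7% of all bright probe sets were lower and 0.538% higher under every scaling, so that the share of falls was near that of probe sets as bright. The sign held but the call was lost at least once in 3 (Acsl1, Eci1 and Pdk4), and the sign turned at least once in 7 (Fabp3, Acadl, Hadhb, Hadh, Echs1, Ech1 and Etfa). For Acat1, Acsl1 and Hadh a further probe set passed in the other direction. Of the 5 rises, that of Acads passed under each, Slc25a20, Decr1 and Etfb kept their sign but lost the call with centring on the array median, and Cpt1b turned there. The 7 genes not called as deposited were Cd36, Slc27a1, Hadha, Eci2, Etfdh, Ppara and Ppargc1a.

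**Figure D2:**
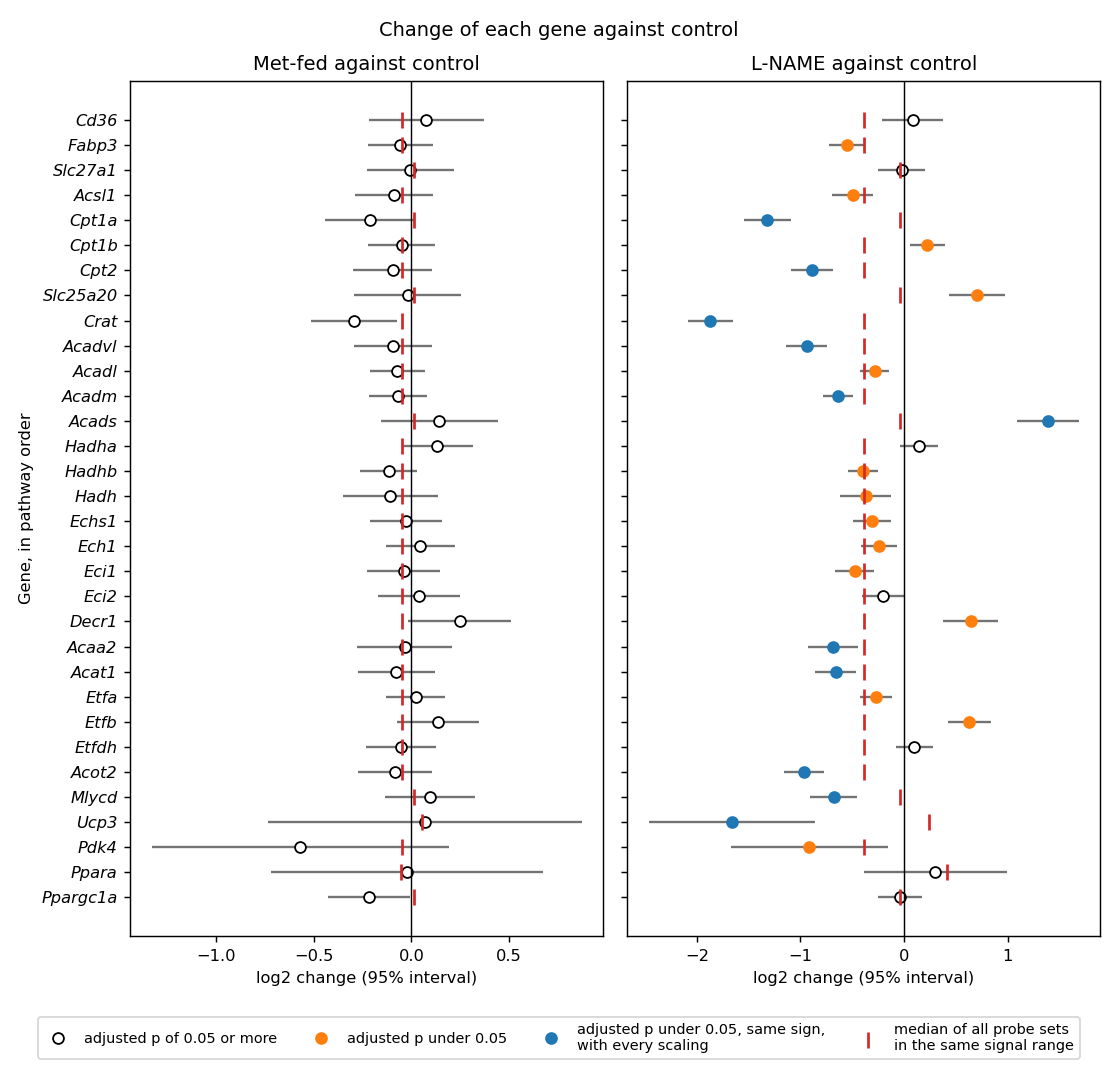
Log2 change against control (horizontal axis, points with 95% intervals from limma) of the 32 genes in pathway order (vertical axis), for Met-fed (left) and L-NAME hearts (right, on a wider scale), with a red mark at the median of all probe sets in the same signal range. Blue points mark the 10 falls and the 1 rise of L-NAME hearts that passed an adjusted p of 0.05 with every scaling, and many orange points, among them Hadhb and Hadh, sit on the red mark, where other scalings turned their sign.

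At the entry into the cell all 4 genes lay between the 10th and 90th percentile of the change of probe sets in their signal range. In narrower steps of 0.5 on the log2 scale Cd36 lay just above the 90th percentile (0.05). Cd36, the membrane fatty acid translocase, had signals of 1537, 2057, 1169.8, 1471 and 1191 in control and of 1438, 1518, 1672 and 1535 in L-NAME hearts. The L-NAME arrays fell inside the control range, and the log2 change was 0.08 ± 0.14 (adjusted p = 0.668 in limma, p = 0.683 in the exact permutation test, 2-sided). Quantile normalization, cyclic loess and centring on bright probe sets each made this change pass as higher (0.41, 0.40 and 0.40), and centring on the array median gave -0.34. Slc27a1, a fatty acid transport protein, had a change of -0.02 ± 0.11. Fabp3, the fatty acid binding protein of heart cytosol, ranged over 3782 to 4332 in control and 2639 to 3029.8 in L-NAME hearts, without overlap, and had a log2 change of -0.55 ± 0.08 that was 0.01 with quantile normalization. Acsl1, the main long-chain acyl-CoA synthetase of heart, had a log2 change of -0.50 ± 0.09, which passed as deposited and was -0.03 with quantile normalization. Another bright probe set of Acsl1 had a change the other way, given with the genes read by several probe sets.

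The carnitine shuttle held 2 of the 3 largest falls, Crat and Cpt1a, and also a rise. Cpt1a had signals of 1151, 1482, 1189.8, 1417 and 1296 in control and of 468, 599, 566 and 464 in L-NAME hearts, so that all 4 L-NAME arrays lay far under all controls. Its log2 change was -1.32 ± 0.11 (adjusted p = 1.03e-07 in limma), and between -1.75 and -1.004 over the scalings. Cpt1b, the form that predominates in adult heart, had signals of 1651, 1900.5, 1424, 1601 and 1630.3 in control and of 2010.2, 2052, 1908 and 1693 in L-NAME hearts. Here the groups overlapped through control replicate 2 and L-NAME replicate 4. The log2 change of 0.23 ± 0.08 passed (adjusted p = 0.0304 in limma) but not without control replicate 3, 4 or 5 or L-NAME replicate 1, 2 or 3, and it turned to -0.20 with centring on the array median. Against the median change of its signal range Cpt1b stood 0.61 higher and Cpt1a -1.28 from it, on the log2 scale.

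Slc25a20, the carnitine-acylcarnitine carrier, rose from 313, 452, 377, 352 and 300.1 in control to 577, 593, 637 and 514 in L-NAME hearts, with no overlap. The log2 change was 0.71 ± 0.13 (adjusted p = 2.69e-04 in limma, p = 0.0159 in the exact permutation test), and 0.28 with centring on the array median, where it no longer passed. Cpt2, the enzyme on the inner side, went the other way, from 1708 to 2095 in control to 826 to 1035 in L-NAME hearts, a log2 change of -0.89 ± 0.09 that passed with every scaling. Crat gave the largest change of the pathway. Its L-NAME signals were 651, 554, 528 and 429, against a control mean of 1963 ± 172 (SD, n = 5), and the lowest control had 1659, so that the groups stood far apart. The log2 change was -1.87 ± 0.10 (adjusted p = 3.20e-09 in limma), -1.48 from the median of probe sets as bright, and -2.30 to -1.55 over the scalings. For Cpt1a, Cpt2 and Crat the exact permutation test gave p = 0.00794, the smallest that 4 arrays against 5 allow.

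**Figure D3:**
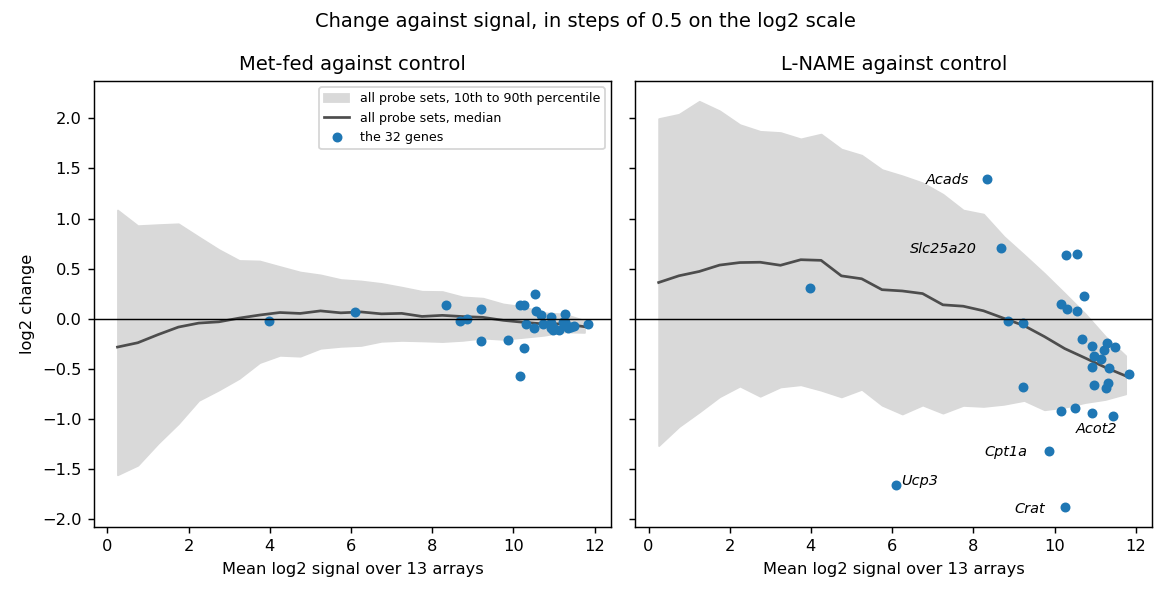
Log2 change (vertical axis) against mean log2 signal over 13 arrays (horizontal axis) for the 32 genes (points), over the median (line) and the 10th to 90th percentile (grey) of all probe sets in steps of 0.5, in Met-fed (left) and L-NAME hearts (right). In L-NAME hearts the line drops with signal, and among the points outside the grey band are Crat, Ucp3, Cpt1a, Acot2 and Acadvl under it and Acads, Decr1, Etfb and Cpt1b above it.

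The 4 acyl-CoA dehydrogenases, which start each turn of beta-oxidation on chains of different length, went in both directions. Acadvl, for very long chains, had signals of 2289, 2429, 2279, 2785 and 2331 in control and of 1331, 1377, 1237 and 1111 in L-NAME hearts, a log2 change of -0.94 ± 0.09 (adjusted p = 7.35e-07 in limma). No array of one group reached the other. Acadm, for medium chains, had 3012, 2919, 2914, 3074 and 2954 in control and 1848, 1939.6, 2034 and 1829 in L-NAME hearts (log2 change -0.64 ± 0.07), and with Acadvl it passed under every scaling, though at -0.18 with quantile normalization. Acadl, for long chains, had a change of -0.29 ± 0.07 as deposited but stood at 0.24 with quantile normalization and 0.03 with centring on bright probe sets. Acads, for short chains, rose. Its signals were 309.6, 277, 177, 198 and 230.1 in control, 258, 283, 261 and 231 in Met-fed and 693, 602, 607 and 554 in L-NAME hearts. The L-NAME arrays were all above 309.6, the highest control, with a mean of 614 ± 57.8 (SD, n = 4) against 238 ± 54.8 (SD, n = 5). The log2 change was 1.39 ± 0.14 (adjusted p = 8.21e-07 in limma) and lay between 0.97 and 1.71 over the scalings. Acads, Acadvl and Acadm each had p = 0.00794 in the exact permutation test (2-sided), and each was read by a single probe set.

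**Figure D4:**
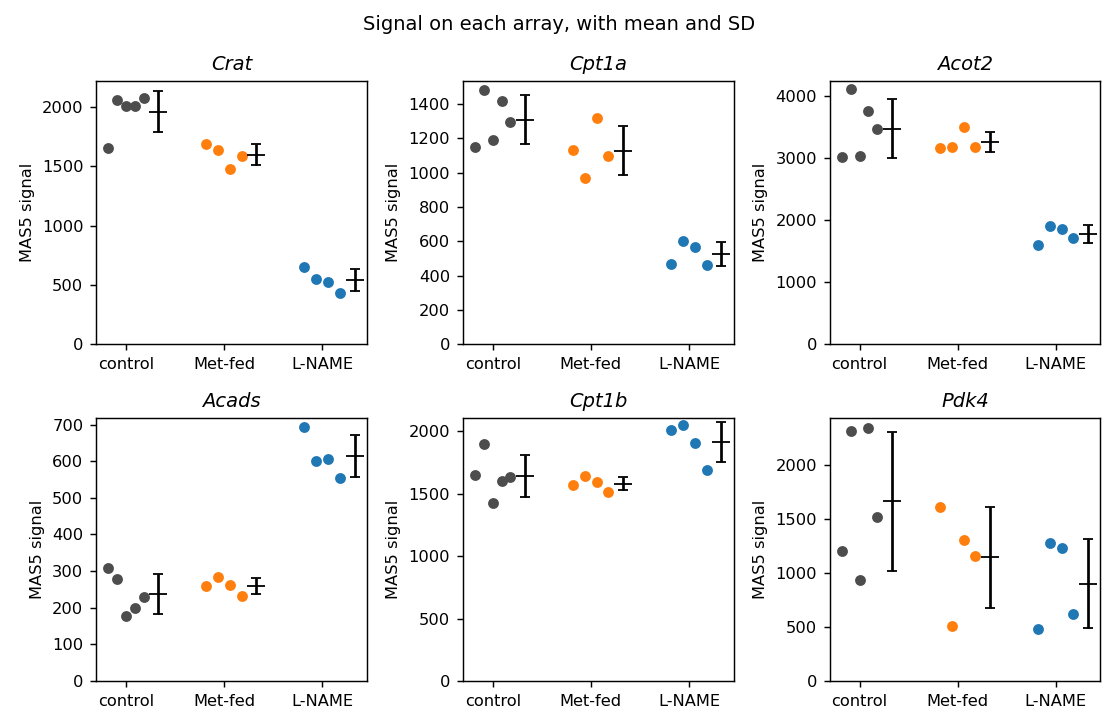
MAS5 signal (vertical axis, linear and from 0, on a separate scale for each gene) of Crat, Cpt1a, Acot2, Acads, Cpt1b and Pdk4 on each array (points) in control, Met-fed and L-NAME hearts, with mean and SD beside the points. The L-NAME points lie wholly under the others for Crat, Cpt1a and Acot2 and wholly above them for Acads, and they overlap with control for Cpt1b and Pdk4.

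The enzymes of the following steps had changes near those of probe sets of like signal. Hadha lay just above the 90th percentile of the change of probe sets with a mean log2 signal of 10 or more (0.13). In the narrower steps of signal Hadha lay under the 90th percentile (0.25). Hadha and Hadhb are the subunits of the trifunctional protein, which handles long chains on the inner membrane. Hadha had signals of 1141, 1269, 1046, 1041 and 947 in control and of 1155, 1202, 1281 and 1156 in L-NAME hearts, which overlapped (log2 change 0.14 ± 0.09, adjusted p = 0.186 in limma). Hadhb ranged over 2392 to 2648 and 1773 to 2017, without overlap, and had a change of -0.40 ± 0.07, which was 0.03 with quantile normalization. The difference between the subunits was not tested. Echs1, the short-chain hydratase, and Hadh, the hydroxyacyl-CoA dehydrogenase of the matrix, had changes of -0.31 ± 0.09 and -0.37 ± 0.11, which turned to 0.13 and 0.02 with quantile normalization, and that of Hadh did not pass without L-NAME replicate 4. The thiolases went further. Acaa2, which cleaves medium and long chains, ranged over 2562 to 2996 in control and 1594 to 2008 in L-NAME hearts, a log2 change of -0.68 ± 0.11. Acat1, which cleaves acetoacetyl-CoA, ranged over 2206 to 2444 and 1278 to 1589, a change of -0.66 ± 0.09. In these probe sets neither gene overlapped between the groups, and both changes passed under every scaling. Another probe set of Acat1 (0.37 ± 0.08) and another of Hadh (2.62 ± 0.22) passed the other way. Both are given with the genes read by several probe sets.

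Unsaturated fatty acids need auxiliary enzymes that shift or remove double bonds. Decr1, the dienoyl-CoA reductase, had signals of 1215, 1467, 1043, 1476 and 1048 in control and of 1824, 2083, 2076 and 1755 in L-NAME hearts, and all L-NAME arrays were above all controls. The log2 change was 0.64 ± 0.12 (adjusted p = 4.59e-04 in limma, p = 0.00794 in the exact permutation test), and 0.22 with centring on the array median, where it did not pass. The isomerases Ech1, Eci1 and Eci2 lay lower, with changes of -0.24 ± 0.08, -0.48 ± 0.09 and -0.20 ± 0.10. Eci1 kept its sign with every scaling, Ech1 turned to 0.23 with quantile normalization and lost its call when any of 4 single arrays was left out (control replicate 2 or 4, L-NAME replicate 1 or 4), and Eci2 did not pass (adjusted p = 0.115 in limma) and turned to 0.13.

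The electron transfer flavoprotein, a dimer of Etfa and Etfb, takes the electrons of every acyl-CoA dehydrogenase. As deposited its subunits changed in opposite directions. Etfb rose from 1119, 1256, 963, 1019 and 921 in control to 1554, 1509, 1871 and 1589 in L-NAME hearts, with no overlap, a log2 change of 0.63 ± 0.10 (adjusted p = 6.27e-05 in limma, p = 0.00794 in the exact permutation test). Etfa ranged over 1986 to 2137 and 1636 to 1809.7, a change of -0.27 ± 0.07 that turned to 0.12 with quantile normalization, where Etfb stood at 0.93. Under centring on the array median they stood at -0.70 and 0.21, and Etfb no longer passed. Etfdh, the dehydrogenase that hands the electrons to ubiquinone, had a change of 0.10 ± 0.08 and did not pass as deposited.

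Acot2, Mlycd, Ucp3 and Pdk4, which steer fatty acids and fuel choice, were all lower as deposited, where 17% of all probe sets were. The first 3 passed under every scaling, where 9.04% were lower. Acot2 and Pdk4 are bright, and of bright probe sets 68.7% were lower as deposited and 32.7% under every scaling. Acot2, a mitochondrial thioesterase that frees fatty acids from coenzyme A, had signals of 3009, 4114, 3027, 3750.0 and 3465 in control and of 1599, 1912, 1861 and 1704 in L-NAME hearts (log2 change -0.97 ± 0.09, adjusted p = 3.69e-07 in limma). The highest L-NAME signal was 1912 and the lowest control signal 3009. Mlycd, malonyl-CoA decarboxylase, ranged over 612 to 757 in control and 346 to 457 in L-NAME hearts, a change of -0.68 ± 0.11. Both passed under every scaling. Ucp3 had signals of 102, 78.6, 48.5, 139.8 and 155 in control and of 15.9, 42.3, 53.1 and 24.5 in L-NAME hearts. L-NAME replicate 3 and control replicate 3 overlapped, yet the log2 change of -1.66 ± 0.38 passed under every scaling (adjusted p = 0.00175 in limma, p = 0.0238 in the exact permutation test). Its error was more than that of any other gene of the list. Pdk4 had L-NAME signals of 482, 1274, 1229 and 622, of which 2 lay inside the control range of 934 to 2344. Its log2 change was -0.92 ± 0.36 with an adjusted p of 0.0469 in limma, p = 0.103 in the exact permutation test, and it failed to pass under 3 of 4 other scalings or without control replicate 2, 4 or 5, Met-fed replicate 3 or 4 or L-NAME replicate 1 or 4.

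By their brightest probe sets the regulators themselves did not pass. Ppargc1a had signals of 651, 641, 648 and 516 in L-NAME hearts, inside or under the control range. Its log2 change was -0.04 ± 0.10 (adjusted p = 0.796 in limma, p = 0.754 in the exact permutation test). Another, dim probe set of Ppargc1a rose under every scaling (1.86 ± 0.27), given with the genes read by several probe sets. Ppara, the receptor, had 19.8, 12.9, 17.1, 7.82 and 21.0 in control and 31.3, 15.7, 16.1 and 14.3 in L-NAME hearts. L-NAME replicate 1 was the highest of all arrays and the other L-NAME arrays lay among the controls (log2 change 0.30 ± 0.33, adjusted p = 0.487). At so dim a signal the 95% interval was wide, -0.39 to 1.00, and the sign turned with quantile normalization (-0.19).

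Many genes of the pathway are bound by nuclear receptors at the half-site AGGTCA. RefSeq promoters (build GRCr8) were matched by symbol for 27 of the 32 genes, and the 250 bases before the transcription start were searched on both strands. The half-site was found in 5 of 27 (18.5%), against 14.1% of 33469 promoters. The half-site extended to TNAAGGTCA, as bound by estrogen-related receptors, was found in 0 of 27, against 1.04% of all, and the direct repeat AGGTCANAGGTCA, whose matches also count as half-sites, in 0 of 27, against 0.0508% of all. These are matches of letters. The 5 genes were Acadvl, Ucp3, Echs1, Eci1 and Slc27a1, of which Acadvl and Ucp3 had 2 matches each. In Acadvl the first base of the match lay 169 and 17 bases and in Ucp3 155 and 50 bases before the start. Echs1, Eci1 and Slc27a1 did not pass under every scaling in L-NAME against control, and the relation of matches to changes was not tested. Crat had the largest fall by the brightest probe sets and Acads the rise that passed under every scaling. No match was found in either. The promoters of Acadvl and Ucp3, which fell in L-NAME hearts, are shown with those of Crat and Acads. They run 5′ to 3′ on the strand of the gene, with matches in capitals. The regions are chr10:55236706-55236955 (minus strand), chr1:164227660-164227909 (plus), chr3:34087100-34087349 (minus) and chr12:47154083-47154332 (plus).
Acadvl: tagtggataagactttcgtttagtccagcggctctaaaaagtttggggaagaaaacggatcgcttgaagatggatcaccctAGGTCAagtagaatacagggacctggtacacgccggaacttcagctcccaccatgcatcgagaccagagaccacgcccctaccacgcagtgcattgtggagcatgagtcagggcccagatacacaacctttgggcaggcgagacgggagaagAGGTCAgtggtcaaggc
Ucp3: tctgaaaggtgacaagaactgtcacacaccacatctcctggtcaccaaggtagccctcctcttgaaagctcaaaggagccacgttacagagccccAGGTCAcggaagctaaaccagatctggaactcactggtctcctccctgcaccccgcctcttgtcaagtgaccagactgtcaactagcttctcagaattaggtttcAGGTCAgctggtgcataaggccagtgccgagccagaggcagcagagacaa
Crat: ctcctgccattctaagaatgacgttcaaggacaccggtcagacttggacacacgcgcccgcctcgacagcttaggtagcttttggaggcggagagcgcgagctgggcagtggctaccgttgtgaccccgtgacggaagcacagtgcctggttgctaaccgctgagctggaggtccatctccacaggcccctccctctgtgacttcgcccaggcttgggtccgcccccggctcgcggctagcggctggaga
Acads: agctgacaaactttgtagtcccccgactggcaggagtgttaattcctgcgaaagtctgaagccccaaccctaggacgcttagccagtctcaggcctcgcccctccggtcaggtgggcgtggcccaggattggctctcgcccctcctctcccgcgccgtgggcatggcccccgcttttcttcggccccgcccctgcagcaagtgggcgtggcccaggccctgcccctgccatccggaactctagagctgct

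The L-NAME hearts were also set against the Met-fed hearts. Crat had 1689.7, 1637, 1481 and 1586 in Met-fed and 651, 554, 528 and 429 in L-NAME hearts, with no overlap and a log2 change of -1.58 ± 0.11 (adjusted p = 4.67e-08 in limma). Ucp3 had a change of -1.73 ± 0.40, Cpt1a of -1.11 ± 0.11 by its brightest probe set, Acot2 of -0.88 ± 0.09, Acadvl of -0.84 ± 0.10 and Cpt2 of -0.79 ± 0.10. Acads was 2.38-fold higher (1.25 ± 0.15) and Slc25a20 1.65-fold (0.73 ± 0.14), and both passed under every scaling. In each of these genes the L-NAME arrays lay wholly outside the Met-fed arrays (p = 0.0286, exact permutation test, 2-sided, the smallest that 4 arrays against 4 allow). Of the 32 genes 5 were higher and 18 lower, where 25.4% and 14.9% of all probe sets were. Among the 24 bright genes 3 were higher and 15 lower, where 5.45% and 63.4% of the bright probe sets were, with a median of -0.29 against -0.33. Under every scaling 2 of the 32 were higher and 10 lower, where 11.9% and 8.05% of all probe sets were, and of the 24 bright genes 0 and 7, where 0.384% and 28.5% were. The other changes that passed upward were Decr1 (0.40 ± 0.13, not without Met-fed replicate 2, 3 or 4 or L-NAME replicate 2 or 3), Etfb (0.49 ± 0.10) and Cpt1b (0.27 ± 0.08), and Cpt1b turned to -0.09 with centring on the array median. Pdk4 did not pass (-0.35 ± 0.38, adjusted p = 0.503 in limma). The 10 genes that were lower than control under every scaling were also the 10 that were lower than Met-fed under every scaling, and the 2 comparisons share the L-NAME arrays. The dim probe set of Cpt1a passed in the other direction here (1.11 ± 0.42, adjusted p = 0.0447 in limma).

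Of the 32 genes 21 were read by a single probe set and 11 by several, 26 probe sets in all. For 5 genes at least 2 probe sets passed in L-NAME against control, and in 3 of them they passed in opposite directions. Acat1 had 2 bright probe sets. One gave 2206 to 2444 in control and 1278 to 1589 in L-NAME hearts (-0.66 ± 0.09 on the log2 scale), the other 1245 to 1424 and 1697 to 1843 (0.37 ± 0.08), both without overlap. The second turned to -0.05 with centring on the array median. Acsl1 likewise had changes of -0.50 ± 0.09 in the brightest and of 0.54 ± 0.09 in the next probe set. The dimmer probe set of Hadh went from 74.8 to 127 in control to 459 to 732 in L-NAME hearts, a change of 2.62 ± 0.22, the largest of any probe set of the pathway, while the brightest had -0.37 ± 0.11. For these 3 genes no single direction can be given. Acot2, by contrast, had 3 probe sets that all fell (-0.97 ± 0.09, -0.90 ± 0.08 and -2.24 ± 0.27), and so had Acaa2 with 2 (-0.68 ± 0.11 and -0.97 ± 0.14). The second probe set of Ucp3 had a change of -0.18 ± 0.27 and that of Pdk4 of 0.55 ± 0.65, neither of which passed (adjusted p = 0.628 and 0.531 in limma), so that the fall of Ucp3 rests on its brightest probe set. The dim probe set of Cpt1a had a change of 0.93 ± 0.40, which did not pass, and with the probe sets of each gene averaged the falls of Cpt1a and Acat1 did not pass either. Another, dim probe set of Ppargc1a rose (1.86 ± 0.27) under every scaling, as did a dim one of Hadha (1.16 ± 0.30). Probe sets that carry several symbols were read apart. That of Cd36 and Cd36l1 had a change of -0.53 ± 0.07 and that of Eci2 and Eci3 of 0.73 ± 0.08, against 0.08 ± 0.14 and -0.20 ± 0.10 for the single-symbol probe sets, and that of Acot2 and Acot1 had -1.20 ± 0.36. Where each probe set lies along its transcript is not given in the files. The 3′ to 5′ ratios of the L-NAME arrays are those given above, and their part in these differences was not tested.

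**Figure D5:**
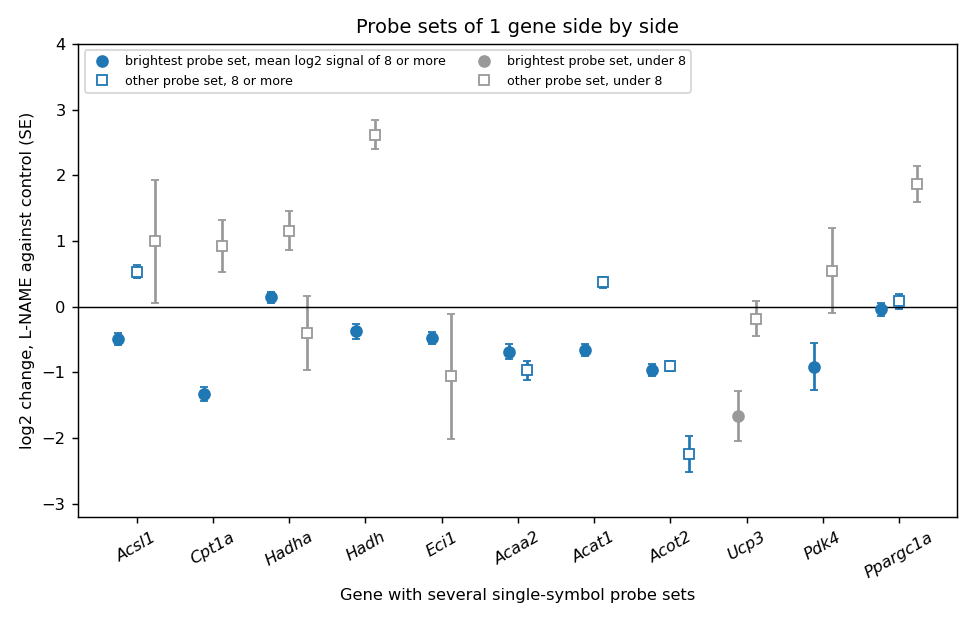
Log2 change in L-NAME against control hearts (vertical axis, with SE) of every single-symbol probe set of the 11 genes that have several (horizontal axis), with filled circles for the brightest and open squares for the others, grey where the mean log2 signal was under 8. Acot2 and Acaa2 lie under 0 in every probe set, while Acsl1, Hadh and Acat1 have called probe sets on both sides of 0 as deposited.

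Around the pathway, other genes of lipid use were read from lists of names. Counts are given as deposited, where 28.7% of all probe sets were higher and 17% lower, and then for the genes that passed in the same direction under every scaling, where 15.4% and 9.04% did. The median of a list is also given after the median change of each gene's own signal range was taken off. Of 11 measured genes of fatty acid carriage and activation, 3 were higher and 5 lower in L-NAME hearts, and under every scaling 0 and 0. Lpl, which frees fatty acids from lipoproteins, had a log2 change of -0.54 ± 0.08, Fabp4, a fatty acid binding protein of endothelium and fat, of -0.48 ± 0.08, and Acsl3, another synthetase, of 0.61 ± 0.15. The median of this list was 0.04 on the log2 scale after the range median was taken off. Among 10 genes of malonyl-CoA and AMPK 5 were higher and 4 lower, and under every scaling 2 and 2. Acacb, the acetyl-CoA carboxylase that makes malonyl-CoA at mitochondria, rose, with a dim signal of 8.18 to 16.4 in control and 40.3 to 63.8 in L-NAME hearts (2.14 ± 0.30). Acaca, the cytosolic form, fell, with 143 to 304 in control and 68.8 to 87.9 in L-NAME hearts (-1.28 ± 0.19). Prkaa2, the AMPK catalytic subunit that predominates in muscle, rose, with 88.6 to 267 in control and 741 to 853 in L-NAME hearts (2.11 ± 0.25). In these 3 genes no array of one group reached the other, and the changes passed under every scaling. The median of the list after the range median was taken off was 0.28.

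Known targets of Ppara outside the pathway list were lower where they passed. Of 11 measured, 0 were higher and 6 lower, and under every scaling 0 and 5. Plin5, a coat protein of lipid droplets in oxidative tissue, had 465 to 569 in control and 113 to 152 in L-NAME hearts (-1.92 ± 0.13). Ucp2, an uncoupling protein, had 1439.6 to 1752 in control and 497 to 714 in L-NAME hearts (-1.46 ± 0.10), and Plin2, another droplet protein, 1836 to 2286 in control and 1066 to 1239 in L-NAME hearts (-0.86 ± 0.08). All 3 fell under every scaling. The median log2 change of the list was -0.86, against 0.22 over all probe sets, and -1.07 after the range median was taken off. Only 3 of the 11 genes had a mean log2 signal of 10 or more, where 68.7% of probe sets were lower. Of 17 measured receptors and partners 4 were higher and 10 lower, and under every scaling 2 and 2. Esrrg, an estrogen-related receptor of heart, fell under every scaling, with 1061 to 1274 in control and 499 to 633 in L-NAME hearts (-1.01 ± 0.10), and the coactivator Med1 rose (0.85 ± 0.10), while Ncoa1 (0.47 ± 0.08) did not pass under every scaling. Rxra rose (2.97) and Nrf1 fell (-0.93) under every scaling too, both dim, with a mean log2 signal under 5. The median of this list after the range median was taken off was -0.25.

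Acyl-CoA dehydrogenases and other enzymes that share the mitochondrial matrix, most of them in the breakdown of amino acids, changed in both directions as well. Of 12 measured, 1 was higher and 7 lower, and under every scaling 1 and 5. Ivd, isovaleryl-CoA dehydrogenase, rose, with 199 to 299 in control and 514 to 619 in L-NAME hearts (1.20 ± 0.11). Acad8, isobutyryl-CoA dehydrogenase, fell, with 871 to 915 in control and 405 to 484 in L-NAME hearts (-0.98 ± 0.07), as did Acad10 (-1.14 ± 0.12). Of 12 measured genes of peroxisomal oxidation 2 were higher and 6 lower, and under every scaling 0 and 3. The peroxisomal importer Abcd3 (-0.73 ± 0.07) and the bifunctional enzyme Hsd17b4 (-0.56 ± 0.08) were among these, and Phyh (-0.56 ± 0.08) was not. Acox2 (-1.79 ± 0.54) was among them too, but dim, with a mean log2 signal under 5. Of 9 further thioesterases 0 were higher and 3 lower, and under every scaling 0 and 2 (Acot7 -0.64 ± 0.10, Acot1 -1.90 ± 0.57), with Acot8 (-0.52 ± 0.16) as deposited only. Acot1, dim with a mean log2 signal under 5, stands in the list of Ppara targets as well. Of 4 measured genes of ketone body use 2 were higher and 1 lower, and under every scaling 0 and 0 (Oxct1 -0.51 ± 0.08, Slc16a1 0.35 ± 0.09 and Bdh1 0.83 ± 0.32). After the range median was taken off, the median was -0.16 for the matrix enzymes, -0.20 for peroxisomal oxidation, -0.46 for the thioesterases and 0.35 for ketone body use. In Met-fed hearts 0 of the 85 genes of these lists passed an adjusted p of 0.05 in limma, and at an unadjusted p under 0.05 6 were higher and 9 lower, where 5.72% and 4.97% of all probe sets were.

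Markers of cell types were read to see what else moved with the groups. All 8 measured cardiomyocyte markers had a mean log2 signal over 10. Of these 7 were lower in L-NAME hearts as deposited and 3 (Myh6, Ryr2 and Mybpc3) under every scaling, where 68.7% and 32.7% of all probe sets as bright were. The changes of the 8 markers ran from -0.77 for Myh6 to -0.23 for Myh7 (log2 change). Their summed signal was 27094 to 29403 in control, 23087 to 31309 in Met-fed and 17639 to 20623 in L-NAME hearts. Their part in the falls of the pathway was not tested. The 6 measured adipocyte markers had a summed signal of 110.1 to 441, 136 to 330.4 and 107 to 463, and 0 passed. Adipoq, which defines fat cells, ranged over 0.285 to 249 within the controls alone. Of the brown fat markers Ucp1 was dim (2.20 to 6.31 in control and 4.35 to 6.44 in L-NAME hearts), while Cidea rose under every scaling (1.01 ± 0.23). Elovl3, also dim, had a log2 change of -1.51 and did not pass. The summed signal of the 3 brown fat markers was 372 to 683, 339 to 693 and 756 to 1233. Of the 3 only Cidea had a mean log2 signal of 8 or more. Of 4 atrial markers 0 passed (sums 1020.2 to 2372, 1361 to 6634 and 1300.5 to 3841), of 4 endothelial markers 3 were lower (sums 4399 to 5114, 3929 to 4917 and 3420.5 to 3900.4), and of 3 blood markers 1, Hbb, was lower (sums 3221 to 4470.0, 3270.4 to 3947 and 3114 to 3702). The 3 endothelial genes (Kdr, Pecam1 and Tek) and Hbb lay among the bright probe sets, of which 68.7% were lower. Only Pecam1 of these passed under every scaling, where 32.7% of the bright probe sets were lower. Of 8 skeletal muscle markers 1, Myh1, as bright as these, was lower, also under every scaling (sums 3578 to 4134, 3064 to 4069.5 and 1842 to 2353). Of 4 hepatocyte markers 0 passed (sums 386 to 802, 493 to 612 and 327 to 464), with Alb, albumin, between 0.125 to 4.41 in control and between 3.36 to 4.99 in L-NAME hearts.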

How the data were processed

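Total RNA of LV was extracted with Trizol and hybridized to Affymetrix Rat Genome arrays, 1 array per sample (5 control, 4 Met-fed and 4 L-NAME). The deposited values were intensity, a linear MAS5 signal for each probe set, which the authors made with MAS5 per the labels (its version is not given in the sources used here). With the lowest and highest 2% left out, the signals averaged 150.0 on each of the arrays, so that a change of the whole array cannot be seen. The variance stabilization of the study's methods was not repeated. The deposited intensity was taken as log2 with no offset and no filter, and 31042 probe sets were fitted with limma 3.58.1 in R 4.3.3, with 1 mean for each group over the 13 arrays, a variance trend and Benjamini-Hochberg adjustment. Tables and figures were made in Python 3.11.15 with pandas 2.3.3 and matplotlib 3.10.9. The fit was tested on simulated data. Arrays give no read depth, and their number limits the precision.

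Gene symbols came from the platform annotation. Of the probe sets 20826 had a single symbol, 436 several and 9780 none. The 32 genes and all lists were chosen with earlier results of these data known. The lists hold fatty acid carriers, malonyl-CoA and AMPK genes, peroxisomal oxidation, thioesterases, other mitochondrial dehydrogenases, ketone body use, PPAR and ERR factors, further Ppara targets, and markers of cardiomyocytes, atrium, adipocytes, brown adipocytes, blood, skeletal muscle, endothelium and hepatocytes. Every one of the 32 genes was named. Values array by array were given for the largest rises and falls, the smallest p in Met-fed hearts and 9 genes picked by role. Of each other list outside the markers at least the 3 genes with the smallest p in L-NAME against control were named. Exact permutation tests were 2-sided. Promoters were taken from RefSeq (GRCr8).

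Alternatives were quantile normalization, centring on the array median, an offset of 16 or 50, the brighter part of the probe sets (from the median up), a fit of only the groups compared, no variance trend, the methods' t-test, the replicate number as a block, the mean of all probe sets of a gene and each array left out in turn. Cyclic loess and centring on probe sets with a mean log2 signal of 10 or more were chosen after seeing the data. "Every scaling" means the deposited values, quantile normalization, both centrings and cyclic loess.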

Additional observations from a re-analysis of the deposited data

Results flagged for a closer look

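In each group the array farthest from the others was compared with the spread of its group for the 32 genes, and 7 of 96 groups held such an array, where chance gives about 4.8. Among the controls, Cpt2 was 2095 in replicate 2 (1708 to 1745 in the others), Crat was 1659 in replicate 1 (2012 to 2074) and Acaa2 was 2562 in replicate 5 (2895 to 2996). In Met-fed hearts, Ech1 was 2354 in replicate 4 (2755 to 2832) and Acot2 was 3499 in replicate 3 (3169 to 3182). In L-NAME hearts, Ppara was 31.26 in replicate 1 (14.28 to 16.07) and Ppargc1a was 516.0 in replicate 4 (641.4 to 651.2). No array stood out in more than 1 gene. The overlap of Crat between control and Met-fed hearts rested on control replicate 1.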

How the results depend on the processing

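In Met-fed against control the 32 genes gave 0 calls after adjustment under every alternative. At an unadjusted p under 0.05, 1 was higher with quantile normalization, centring on bright probe sets and cyclic loess, and 1 was lower with quantile normalization, no variance trend, the methods' t-test, the replicate block, the mean of all probe sets and centring on bright probe sets. Leaving out single arrays gave 0 to 3 higher and 1 to 4 lower, with 0 calls after adjustment and a median of -0.10 to -0.003. In L-NAME against control the calls were 11 higher and 10 lower with quantile normalization, 1 higher with array median centring, 10 and 12 with centring on bright probe sets, and 9 and 10 with cyclic loess. Their median was 0.0075 with quantile normalization, 0.0065 with cyclic loess, -0.77 with array median centring, -0.20 with the mean of all probe sets and -0.025 with centring on bright probe sets. Leaving out single arrays gave 4 to 5 higher, 17 to 20 lower and a median of -0.39 to -0.30. In L-NAME against Met-fed the calls were 10 lower with quantile normalization and with cyclic loess, 2 higher with array median centring, 3 higher with no variance trend, 8 higher and 11 lower with centring on bright probe sets and 9 higher with cyclic loess. Their median was 0.030 with quantile normalization, 0.037 with cyclic loess, -0.65 with array median centring and -0.014 with centring on bright probe sets. Leaving out single arrays gave 3 to 5 higher, 16 to 20 lower and a median of -0.34 to -0.23. The cause of these shifts was not tested.

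With the replicate number as a block 5 genes were higher and 19 lower in L-NAME against control (median -0.33), and 5 and 18 against Met-fed. Deviations of arrays with the same number correlated between -0.21 and 0.24. The labels give only a replicate number, and whether arrays with the same number were handled together cannot be told from these values. The methods' t-test gave 4 higher and 19 lower in L-NAME against control after Benjamini-Hochberg adjustment (5 and 20 at an unadjusted p under 0.05), 4 and 15 against Met-fed (5 and 17), and 0 and 0 in Met-fed against control (0 and 1).

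Signs of single genes turned as follows. In Met-fed against control, leaving out single arrays gave -0.026 to 0.20 for Cd36, -0.099 to 0.0051 for Cpt1b, -0.18 to 0.31 for Ucp3 and -0.25 to 0.10 for Ppara. Cd36 turned without control replicate 3 (-0.003) or Met-fed replicate 1 (-0.026), and Ucp3 without control replicate 2 (-0.0062) or 3 (-0.18) or Met-fed replicate 1 (-0.12) or 3 (-0.048). Cpt1b was 0.0063 with quantile normalization and 0.0051 without control replicate 2. Hadha was -0.32 with the mean of all probe sets. Ppara was 0.10 with the replicate block and 0.025 with centring on bright probe sets.

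In L-NAME against control, quantile normalization gave 0.0085 for Fabp3, 0.24 for Acadl, 0.026 for Hadhb, 0.015 for Hadh, 0.13 for Echs1, 0.23 for Ech1, 0.13 for Eci2, 0.12 for Etfa, -0.19 for Ppara and 0.0065 for Ppargc1a. Cyclic loess gave 0.032 for Slc27a1, 0.17 for Acadl, 0.0068 for Hadhb, 0.0063 for Hadh, 0.10 for Echs1, 0.19 for Ech1, 0.13 for Eci2, 0.099 for Etfa, -0.19 for Ppara and 0.074 for Ppargc1a. Centring on bright probe sets gave 0.29 for Slc27a1, 0.032 for Acadl, 0.0042 for Echs1, 0.077 for Ech1, 0.12 for Eci2, 0.045 for Etfa and 0.28 for Ppargc1a. Array median centring gave -0.34 for Cd36, -0.20 for Cpt1b, -0.28 for Hadha, -0.33 for Etfdh and -0.12 for Ppara. The mean of all probe sets gave 0.35 for Acsl1, 1.12 for Hadh and 0.64 for Ppargc1a. Leaving out single arrays gave -0.10 to 0.033 for Slc27a1 and -0.078 to 0.045 for Ppargc1a. In L-NAME against Met-fed, array median centring gave -0.093 for Cpt1b, and the mean of all probe sets gave 0.00092 for Cpt1a and 0.35 for Pdk4.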

Other observations

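Pdk4, Ucp3 and Angptl4, a secreted inhibitor of lipoprotein lipase that Ppara also controls, varied together between arrays of 1 group. The pattern was noticed in these values and then computed on the same values, so the p-values below cannot serve as a test of it. Angptl4 had signals of 288, 683, 85.7, 505 and 351 in control, of 1026, 11.1, 131 and 354 in Met-fed and of 16.6, 125, 124 and 38.0 in L-NAME hearts. Control replicate 3, Met-fed replicate 2 and L-NAME replicate 1 were the lowest of their groups in all 3 genes. With the group means removed, Pearson's r over the 13 arrays was 0.90 for Pdk4 and Angptl4 (p = 0.000159, adjusted 0.000955, exact permutation within groups), with Spearman's rho 0.86 (p = 0.00103, adjusted 0.00616). It was 0.79 for Pdk4 and Ucp3 (p = 0.00679, adjusted 0.0136, exact permutation), with rho 0.75 (p = 0.0135, adjusted 0.0244), and 0.73 for Ucp3 and Angptl4 (p = 0.00466, adjusted 0.0136, exact permutation), with rho 0.69 (p = 0.0163, adjusted 0.0244). Adjustment was over 6 pairs and does not cover the choice of these genes. Without the 2 arrays farthest from the median of the first gene of each pair r was 0.83, 0.68 and 0.63. The 3′ to 5′ ratio of beta-actin moved with Pdk4 as well (r 0.72, p = 0.0142, adjusted 0.0213, exact permutation, rho 0.71, p = 0.0152, adjusted 0.0244, and r 0.57 without 2 arrays). With Ucp3 the ratio had r 0.57 (p = 0.066, adjusted 0.0792, rho 0.44, p = 0.171, adjusted 0.171, exact permutation, and r 0.38 without 2 arrays), and with Angptl4 r 0.57 (p = 0.0804, adjusted 0.0804, rho 0.57, p = 0.0798, adjusted 0.0957, exact permutation, and r 0.67 without 2 arrays). Differences between these correlations were not tested. The part of RNA quality in the shared variation was not tested. Angptl4 itself did not pass in L-NAME against control (-2.48 ± 0.99 on the log2 scale, adjusted p = 0.0515 in limma).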
